A study of Homo sapiens with 27 samples.

Results

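The 10 genes described here encode proteins of epithelial cell junctions: the claudins CLDN1, CLDN2, CLDN3, CLDN4 and CLDN7, the tight-junction proteins OCLN and TJP1, the adherens-junction cadherin CDH1, and the desmosome proteins DSP and DSG3. They were taken by symbol from a table of 17687 named genes, and each was read by 1 probe set. Their RNA was followed on 27 microarrays of the human colorectal cancer lines LIM1215, SW48 and Caco2, each sampled in 3 states with 3 arrays per state, or 9 groups. The parental state is the line before any challenge; the labels describe it as grown from a single clone, so each line stands for 1 clone. Resistant cells had survived 20 cycles of challenge with cetuximab, an antibody that binds the receptor EGFR, at 1 µg/ml together with 1000000 NK-CD16 cells, killer lymphocytes bearing the antibody receptor CD16, added to 1000000 tumour cells in a 10 cm dish. The withdrawal state is that resistant population after 20 further cycles without cetuximab or killer cells. The question the states pose is whether RNA of junction proteins differed in cells that had survived the challenge and whether it still differed after the challenge had ended. Whether replicates came from separate cultures is not stated, so every p-value measures only the spread between these arrays.

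Tight junctions seal the space between neighbouring epithelial cells near their apical side. Claudins form the strands of the seal, some of them tightening it and others opening it to selected ions, while occludin lies in the same strands and TJP1, also called ZO-1, ties them to the actin cytoskeleton. Below the tight junction, E-cadherin, the product of CDH1, holds cells together at adherens junctions, and desmosomes join the keratin filaments of adjacent cells. In the intestine the set of claudins made by a cell fixes how leaky the epithelium is, and loss of E-cadherin is a textbook sign of epithelial cells that take on mesenchymal traits.

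Values are deposited log2 intensities, which were not compared between lines or between genes, because the arrays of the lines differ in their overall level and every probe set has its own brightness. A group mean under the 95th percentile of 612 negative control probe sets on its arrays is called near background, and that limit lay between 6.56 and 8.19 on single arrays. A gene was called changed when the adjusted p of limma, a linear model fitted across all genes with Benjamini-Hochberg adjustment, was under 0.05. The arrays correlated with those of their own group at 0.995 to 0.997 across genes except for parental replicate 3 of LIM1215, which correlated at 0.987 with both other replicates, so the called LIM1215 changes from parental cells of the 10 genes and of the listed junction genes, regulators and stratified markers named below are also given without it. In these bulk samples, fewer cells of a type and less RNA per cell cannot be told apart.

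The labelled cell type was checked against 13 measured colorectal epithelium markers. Between 11 and 13 of them lay above background on LIM1215 arrays, 8 or 9 on Caco2 arrays and 5 on every SW48 array, where EPCAM, KRT8, KRT18, KRT19 and CDX2 were present and markers such as VIL1, CDH17 and LGALS4 were near background. Of 22 natural killer cell markers, 11 to 12 lay above background on resistant LIM1215 arrays, 8 to 9 on resistant Caco2 arrays and 1 to 4 on resistant SW48 arrays, against 0 to 1 on every parental and withdrawal array. Their mean level per array was 7.59 to 7.95 in resistant and 4.05 to 4.22 in parental LIM1215, 4.59 to 4.97 and 3.07 to 3.24 in SW48, and 6.65 to 6.90 and 3.29 to 3.42 in Caco2. These markers moved with the resistant state in every line (19 of 22 were called higher in LIM1215, 13 in SW48, where 1 was lower, and 19 in Caco2), while after withdrawal 1 was higher in SW48 and 0 in the other lines (limma; 1 in each had an unadjusted p under 0.05; 1 was higher in LIM1215 without parental replicate 3), and their part in the results that follow was not tested.

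The promoter sequences of the genes with the largest changes are shown so that the stretches ahead of CLDN4, CLDN2, DSG3 and CLDN1 can be compared. CLDN1 is among them by a change of -2.76 log2 in resistant SW48, between groups that were both near background. Each is the 250 bases upstream of a RefSeq transcription start on GRCh38.p14, read 5′ to 3′ on the gene's strand, with matches to the AP-1 motif TGANTCA in capitals. The windows are chr7:73830746-73830995 on the plus strand for CLDN4, chrX:106899914-106900163 on the plus strand for the upstream one of 2 CLDN2 starts, chr18:31447491-31447740 on the plus strand for DSG3 and chr3:190322447-190322696 on the minus strand for CLDN1.
CLDN4: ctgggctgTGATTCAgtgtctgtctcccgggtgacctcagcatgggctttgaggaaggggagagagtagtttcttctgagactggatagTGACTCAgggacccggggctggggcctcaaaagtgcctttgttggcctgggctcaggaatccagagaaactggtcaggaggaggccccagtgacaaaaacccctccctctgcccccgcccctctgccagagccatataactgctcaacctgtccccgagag
CLDN2: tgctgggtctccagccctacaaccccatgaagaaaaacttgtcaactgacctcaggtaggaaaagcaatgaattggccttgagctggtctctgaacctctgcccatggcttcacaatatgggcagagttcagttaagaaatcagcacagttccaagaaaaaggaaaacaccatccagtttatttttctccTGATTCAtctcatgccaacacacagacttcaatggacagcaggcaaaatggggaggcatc
DSG3: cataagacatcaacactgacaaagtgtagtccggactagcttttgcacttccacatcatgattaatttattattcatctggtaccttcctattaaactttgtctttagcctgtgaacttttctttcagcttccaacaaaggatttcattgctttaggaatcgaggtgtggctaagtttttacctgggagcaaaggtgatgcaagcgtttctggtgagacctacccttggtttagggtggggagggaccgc
CLDN1: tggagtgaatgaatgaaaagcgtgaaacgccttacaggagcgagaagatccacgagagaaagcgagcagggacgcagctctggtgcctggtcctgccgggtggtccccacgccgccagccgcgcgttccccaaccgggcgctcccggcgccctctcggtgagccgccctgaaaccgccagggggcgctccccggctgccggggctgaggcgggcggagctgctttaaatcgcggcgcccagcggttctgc
The CLDN4 window holds 2 matches, TGATTCA at 242 and TGACTCA at 161 bases upstream of the start, and the CLDN2 window shown holds 1, at 60 bases. The window of the downstream CLDN2 start, which is not shown, holds none. A match on either strand was found in 6.59% of all 34943 promoter windows of this length. The E-box CAGGTG, the letters bound by the repressors SNAI1, SNAI2, ZEB1 and ZEB2, was absent from all 4 windows and is found in 17.5% of all windows on either strand. Among the other windows of the 10 genes it occurs 4 times in that of the downstream CLDN7 start, 2 times in that of DSP and 1 time in each of both OCLN windows and in 1 of 4 TJP1 windows. The Grainyhead-like motif AACNNGTT, read on both strands, was in none of the windows of these genes and in 3% of all windows. These matches are letters in a window and were not tested for binding. GC content was 68.8% in the CLDN1 window, 58.8% in that of CLDN4, 46% in that of CLDN2 and 42.8% in that of DSG3.

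**Figure D1:**
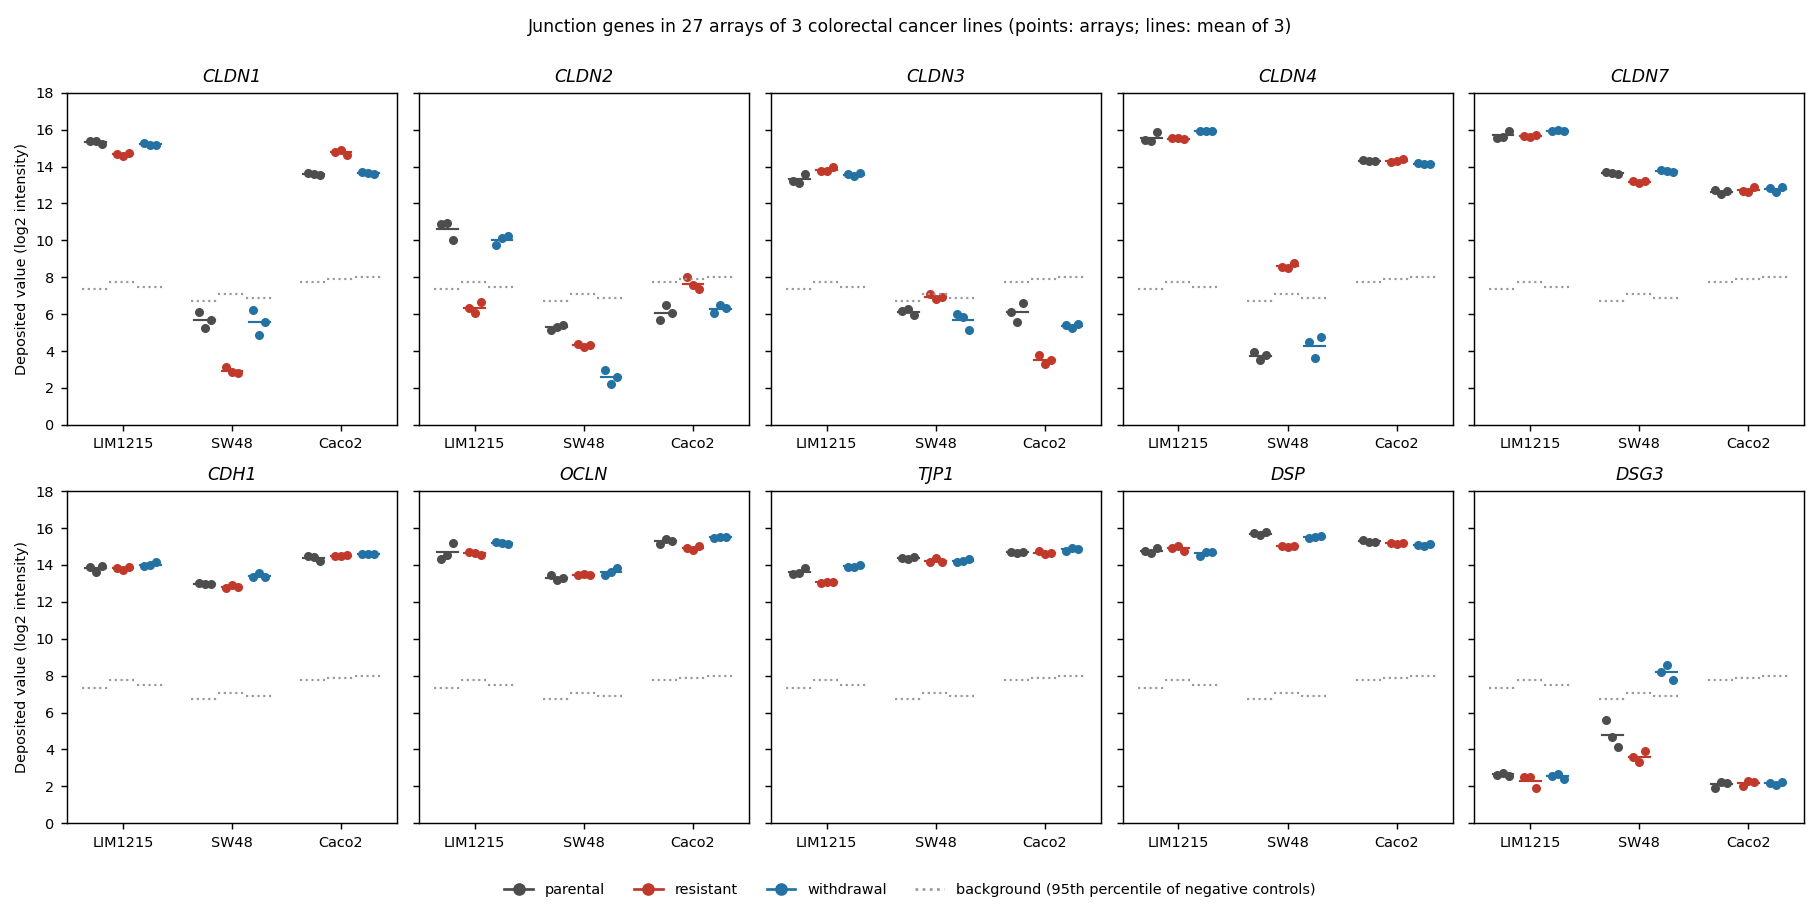
Each panel is 1 gene, with the deposited log2 intensity on the vertical axis and the 3 lines on the horizontal axis; points are arrays, solid lines are means of 3 arrays and dotted lines mark the background limit of each group. CLDN2 in resistant LIM1215, CLDN4 in resistant SW48 and DSG3 in SW48 after withdrawal stand apart from the other states of their line, whereas CLDN7, CDH1, OCLN, TJP1 and DSP lie far above background in all 9 groups.

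CLDN2, the claudin that opens tight junctions to small cations and water, fell below background in resistant LIM1215 cells and was well above it again after withdrawal. Its 3 parental arrays read 10.87, 10.92 and 10.00, the resistant arrays 6.31, 6.06 and 6.65, and the withdrawal arrays 9.77, 10.12 and 10.21. All resistant arrays lay below the background limit of their array and below every other LIM1215 array. The change from parental to resistant was -4.25 log2 (SE 0.24, limma adjusted p = 9.56e-12), at least 7.21-fold lower (-4.55 log2 without parental replicate 3), and the change from resistant to withdrawal was 3.69 (SE 0.24, adjusted p = 9.58e-11), at least 4.89-fold higher.

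The CLDN2 level after withdrawal was 10.03 ± 0.23 (SD, n = 3) against 10.59 ± 0.52 in parental cells, and these arrays overlapped. That difference of -0.56 was not called (95% interval -1.07 to -0.05, adjusted p = 0.114), and without parental replicate 3 it was -0.86 with an adjusted p of 0.00815. In the other lines CLDN2 was near background in all 6 groups. SW48 read 5.28 in the parental state, 4.31 in the resistant state and 2.59 after withdrawal, and Caco2 read 6.07, 7.65 and 6.29. The resistant Caco2 arrays, at 8.01, 7.60 and 7.36, lay above the other Caco2 arrays, and replicate 1 alone passed its background limit of 7.68. The SW48 changes from parental to resistant (-0.97, adjusted p = 0.00495) and to withdrawal (-2.68, adjusted p = 2.81e-07) and the Caco2 change to resistant (1.59, adjusted p = 2.09e-05) were called by limma, as differences of dim values to which no fold is given.

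CLDN4, a barrier claudin that also serves as a receptor for an enterotoxin of Clostridium perfringens, rose above background in resistant SW48 cells. The SW48 arrays read 3.97, 3.49 and 3.78 in parental cells, 8.58, 8.51 and 8.80 in resistant cells and 4.47, 3.60 and 4.76 after withdrawal. The resistant arrays were the only ones above background, by 1.55 log2 on average, and none overlapped with another state. CLDN4 was 4.88 log2 higher in resistant than in parental cells (SE 0.19, limma adjusted p = 7.67e-15), at least 3.75-fold, and changed by -4.35 from resistant to withdrawal cells (SE 0.19, adjusted p = 6.44e-14), at least 3.35-fold lower.

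In the other lines CLDN4 was bright in every state. LIM1215 groups had means of 15.54, 15.51 and 15.92 across the parental, resistant and withdrawal states, and Caco2 groups had 14.30, 14.30 and 14.15. No change was called there, and the interval of the resistant change ran from -0.43 to 0.37 in LIM1215 and from -0.39 to 0.40 in Caco2. CLDN4 in SW48 after withdrawal lay 0.53 above parental, both near background, a difference that was not called (adjusted p = 0.145) but passed without withdrawal replicate 2 (0.87, adjusted p = 0.0015).

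CLDN3, which lies close to CLDN4 on chromosome 7 and encodes another receptor of the same toxin, gave a dim signal outside LIM1215. SW48 read 6.13, 6.95 and 5.66 across the parental, resistant and withdrawal states, and Caco2 read 6.11, 3.52 and 5.37. The 3 resistant SW48 arrays lay above and the 3 resistant Caco2 arrays below all others of their line. All of these group means were near background, and the changes from parental to resistant were called at 0.82 (SE 0.21, adjusted p = 0.00604) in SW48 and at -2.59 (SE 0.21, adjusted p = 1.79e-09) in Caco2. The Caco2 difference after withdrawal was -0.73 (adjusted p = 0.0465), and its adjusted p lay over 0.05 in 8 of the 12 other settings tried. LIM1215, where CLDN3 was bright, read 13.32 ± 0.26, 13.82 ± 0.13 and 13.57 ± 0.067 (SD, n = 3) with no call in any comparison.

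CLDN1, a claudin that tightens the barrier, was higher in resistant Caco2 cells than in the other states of that line. The arrays read 13.67, 13.58 and 13.53 in the parental state, 14.78, 14.92 and 14.63 in the resistant state and 13.71, 13.65 and 13.57 after withdrawal. Every resistant array lay above the other 6, which overlapped each other. The rise was 2.27-fold (1.18 log2, SE 0.23, limma adjusted p = 0.000275), and after withdrawal CLDN1 was 2.19-fold lower than in resistant cells (adjusted p = 0.000498).

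In LIM1215 the resistant CLDN1 arrays, at 14.69, 14.57 and 14.75, lay below the parental arrays at 15.39, 15.40 and 15.20. The difference of -0.66 (SE 0.23) missed the threshold (adjusted p = 0.0673). It passed in 4 other settings, among them the fit on LIM1215 arrays alone (adjusted p = 0.00775). In SW48 CLDN1 was near background throughout, with means of 5.69, 2.93 and 5.57, and its resistant value was called lower (-2.76, adjusted p = 2.87e-09).

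CLDN7, a claudin of the lateral membrane that binds the adhesion protein EpCAM, was well above background in all 9 groups. In SW48 it read 13.71, 13.63 and 13.60 in the parental state, 13.21, 13.12 and 13.21 in the resistant state and 13.81, 13.78 and 13.69 after withdrawal. The resistant arrays lay below all others, and CLDN7 was 1.38-fold lower than in parental cells (-0.47 log2, SE 0.11, limma adjusted p = 0.00289). After withdrawal it was 1.49-fold higher than in resistant cells (adjusted p = 0.00039). No CLDN7 change was called in LIM1215, where group means lay between 15.66 and 15.94, or in Caco2, where they lay between 12.64 and 12.79. In LIM1215 the higher level after withdrawal passed against parental cells without parental replicate 3 (0.36, adjusted p = 0.0156) and with trended robust eBayes (0.25, adjusted p = 0.0442). Against resistant cells it passed with trended robust eBayes (0.28, adjusted p = 0.0203) and with only genes above background tested (adjusted p = 0.0338).

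OCLN, the strand protein occludin, was called in no comparison of resistant with parental cells with the settings used throughout, and was higher after withdrawal in LIM1215. The LIM1215 parental arrays read 14.35, 14.52 and 15.17, the resistant arrays 14.69, 14.66 and 14.56, and the withdrawal arrays 15.22, 15.22 and 15.16. Parental replicate 3 reached the withdrawal level while the other parental arrays lay below the resistant ones. OCLN after withdrawal was 1.43-fold above parental (0.52 log2, SE 0.15, adjusted p = 0.0156), and 0.77 without parental replicate 3 (adjusted p = 3.03e-05). The call was lost without parental replicate 1 (0.35, adjusted p = 0.139) or 2 (0.44, adjusted p = 0.0918) and in the fit on LIM1215 arrays alone (adjusted p = 0.117). In Caco2 OCLN read 15.28, 14.93 and 15.49 in the 3 states. Its withdrawal arrays lay above all resistant arrays, with a rise of 0.56 (SE 0.15, adjusted p = 0.00737), while the step from parental to resistant, -0.35, was not called (adjusted p = 0.0943) but passed with trended robust eBayes (adjusted p = 0.0333). SW48 means were 13.31, 13.45 and 13.62 with no call.

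TJP1, the scaffold that links claudins and occludin to actin, fell in resistant LIM1215 cells. Its arrays read 13.51, 13.54 and 13.83 in the parental state, 13.00, 13.09 and 13.07 in the resistant state and 13.90, 13.88 and 14.02 after withdrawal. The 3 states did not overlap, with resistant lowest and withdrawal highest. The fall was 1.49-fold (-0.58 log2, SE 0.10, limma adjusted p = 0.000327; -0.48 and adjusted p = 0.00168 without parental replicate 3) and the level after withdrawal was 1.84-fold above resistant (adjusted p = 6.66e-07). The level after withdrawal was also called above parental, by 0.31 (adjusted p = 0.0367), but that call was lost without any 1 of 5 of the 6 LIM1215 arrays compared, the exception being parental replicate 3 (0.41, adjusted p = 0.00317 without it). It was also lost in the fit on LIM1215 arrays alone (adjusted p = 0.136) and with the replicate block (adjusted p = 0.0589). No TJP1 change was called in SW48 (14.36, 14.21 and 14.23) or Caco2 (14.68, 14.66 and 14.85).

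CDH1, the gene of E-cadherin, was not called lower in the resistant cells of any line. LIM1215 read 13.82 ± 0.16, 13.83 ± 0.097 and 14.02 ± 0.11 across the parental, resistant and withdrawal states, and Caco2 read 14.37 ± 0.15, 14.51 ± 0.024 and 14.58 ± 0.0080 (SD, n = 3). The interval of the change from parental to resistant was -0.22 to 0.23 in LIM1215, -0.37 to 0.07 in SW48 and -0.08 to 0.36 in Caco2, so a loss larger than 0.37 log2 lay outside all of them. The SW48 arrays read 13.00, 12.99 and 12.96 in the parental state, 12.78, 12.91 and 12.81 in the resistant state and 13.32, 13.59 and 13.36 after withdrawal, the last group above all others. CDH1 in SW48 after withdrawal was 1.36-fold above parental (0.44, SE 0.11, adjusted p = 0.0187) and 1.51-fold above resistant (adjusted p = 0.000193). The call against parental was lost without any 1 of the 3 parental arrays or without withdrawal replicate 2, with changes of 0.36 to 0.49 over all left-out arrays, and in the fit on SW48 arrays alone (adjusted p = 0.0871).

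DSP encodes desmoplakin, which fastens keratin filaments to the desmosome. In SW48 it read 15.71, 15.62 and 15.77 in the parental state, 15.04, 14.95 and 15.02 in the resistant state and 15.48, 15.50 and 15.60 after withdrawal. The states did not overlap, with resistant lowest and parental highest. DSP was 1.62-fold lower in resistant than in parental cells (-0.70 log2, SE 0.098, limma adjusted p = 9.68e-06) and rose 1.43-fold after withdrawal (adjusted p = 0.000314). LIM1215 and Caco2 means stayed between 14.62 and 15.28, and the call of -0.28 between withdrawal and resistant LIM1215 cells (adjusted p = 0.0331) was lost without resistant replicate 1 or 2 or without withdrawal replicate 1. It was also lost with the replicate block (adjusted p = 0.0636) and in the fit on LIM1215 arrays alone (adjusted p = 0.147).

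DSG3 encodes a desmosomal cadherin of basal stratified epithelium, the target of autoantibodies in pemphigus vulgaris, and it rose above background in SW48 cells after withdrawal. The parental arrays read 5.58, 4.68 and 4.11, the resistant arrays 3.58, 3.31 and 3.93 and the withdrawal arrays 8.23, 8.56 and 7.76. The withdrawal arrays were the only ones above background, by 1.30 on average, and lay above all 6 others. DSG3 after withdrawal was at least 2.75-fold above parental (3.39 log2, SE 0.26, limma adjusted p = 1.98e-08) and at least 2.15-fold above resistant (4.58, adjusted p = 4.44e-12). The resistant value was also called below parental, as a difference of dim values (-1.18, adjusted p = 0.00131). In LIM1215 and Caco2 all group means lay between 2.11 and 2.64, far under background, with no call.

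**Figure D2:**
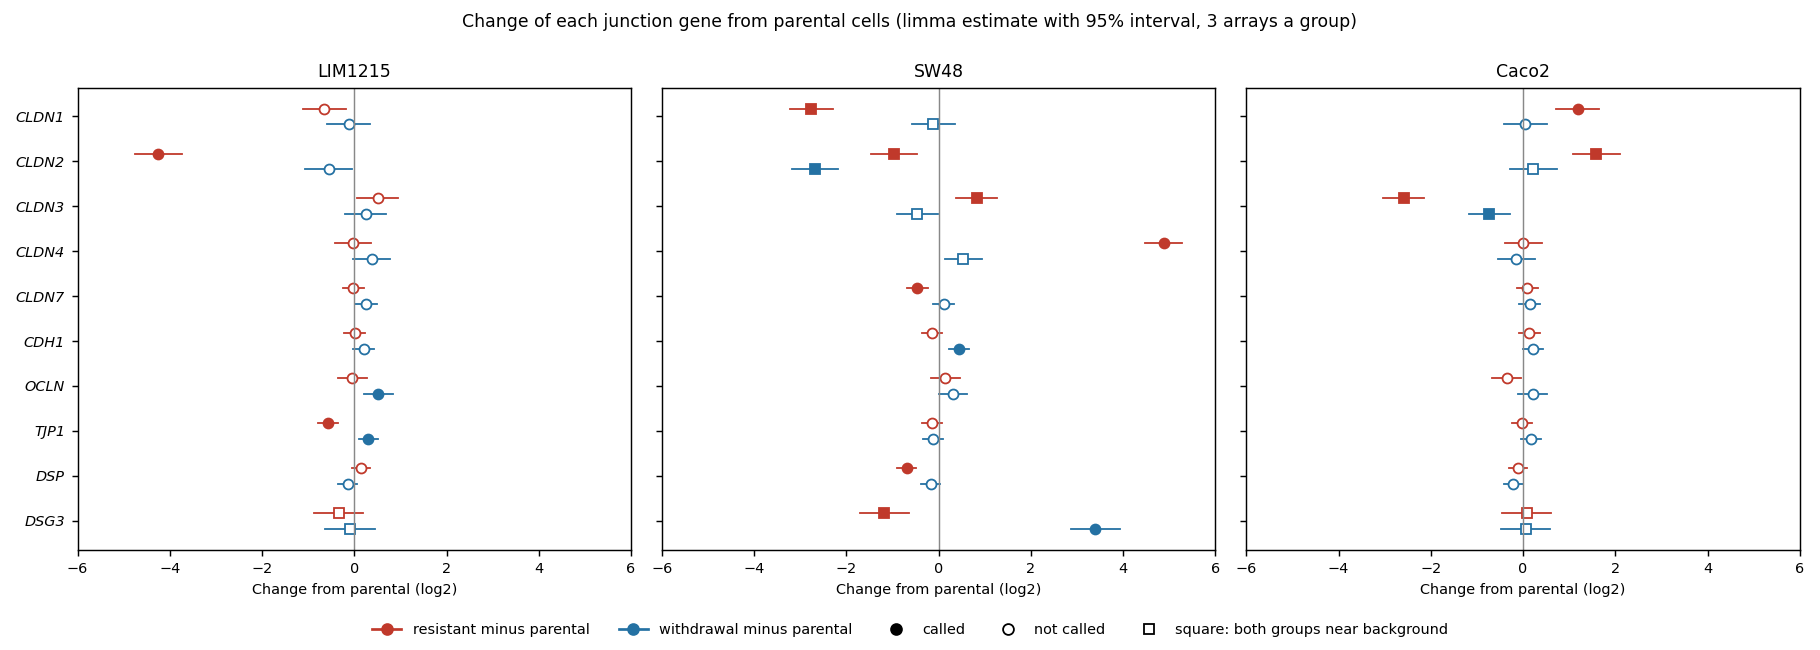
The horizontal axis is the log2 change from parental cells, with the limma estimate and its 95% interval for resistant (red) and withdrawal cells (blue) of each line; filled marks were called, and squares mark pairs of groups that were both near background. The changes over 3 log2 are CLDN2 at -4.25 in resistant LIM1215, CLDN4 at 4.88 in resistant SW48 and DSG3 at 3.39 in SW48 after withdrawal, while CDH1, OCLN, TJP1, DSP and CLDN7 stay within 1 log2 everywhere.

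Counted per comparison, the share of these genes that was called can be set against the share of all 17687 genes. In SW48, 7 of 10 were called between resistant and parental cells, 2 higher (CLDN3, CLDN4) and 5 lower (CLDN1, CLDN2, CLDN7, DSP, DSG3), against 22.7% of all genes, but 4 of these 7 were near background in both groups. Among the 6 above background in either group, 3 were called, against 38.6% of all such genes. In Caco2, 3 of 10 were called (27.4% of all genes), CLDN1 and CLDN2 higher and CLDN3 lower, and of the 7 above background in either group only CLDN1 was called, against 41.3% of all such genes. In LIM1215, 2 of 10 were called (10.8% of all genes), both lower, CLDN2 and TJP1, out of 9 above background in either group (14.2% of all such genes). Over the 10 genes the Caco2 share was near that of all genes. Among genes above background, the SW48 and LIM1215 counts were near their shares too, and the Caco2 count was lower than its share.

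Between withdrawal and parental cells, 2 of 10 genes were called in LIM1215 (OCLN and TJP1, higher; 21.1% of all genes), 3 in SW48 (CDH1 and DSG3 higher, CLDN2 lower; 4.08%) and 1 in Caco2 (CLDN3, lower; 5.28%). Among genes above background in either group the counts were 2 of 9 in LIM1215, 2 of 6 in SW48 and 0 of 7 in Caco2, against 33.4%, 7.14% and 7.72% of all such genes. Without parental replicate 3 the LIM1215 count was 4, with CLDN7 added as higher and CLDN2 as lower. The comparisons with resistant cells share their parental arrays with these. Between withdrawal and resistant cells, 4 were called in LIM1215 (27.9% of all genes), 8 in SW48 (22.2%) and 4 in Caco2 (24.7%). In SW48 the 8 were CLDN1, CLDN7, CDH1, DSP and DSG3, higher after withdrawal, and CLDN2, CLDN3 and CLDN4, lower. Of these, CLDN1, CLDN2 and CLDN3 were near background in both groups. Among genes above background in either group, 5 of 7 were called in SW48, 4 of 9 in LIM1215 and 2 of 7 in Caco2. The share of all such genes was not computed for these comparisons, so whether these counts exceed it is not known.

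The median change of the 10 genes from parental to resistant cells was -0.036 in LIM1215, -0.31 in SW48 and 0.040 in Caco2, beside -0.028, -0.0021 and -0.026 over all genes. From parental to withdrawal cells it was 0.23, -0.0026 and 0.10, beside 0.0049, 0.00022 and -0.016. Arrays of resistant and parental cells did not overlap for 5 of the 10 genes in LIM1215, 8 in SW48 and 6 in Caco2, against 23.7%, 35.5% and 39.9% of all genes. Arrays of withdrawal and parental cells did not overlap for 3 genes in LIM1215, 4 in SW48 and 6 in Caco2, against 31.6%, 22.1% and 23.4%. These medians and counts include dim values. In both comparisons 9 of the 10 genes lay above background in either group in LIM1215, 6 in SW48 and 7 in Caco2.

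The changes differed between the lines by tests of the difference itself. Between LIM1215 and SW48 the change to resistant differed for 5 of the 10 genes (18.3% of all genes), between LIM1215 and Caco2 for 4 (21.3%) and between SW48 and Caco2 for 7 (25.9%). For CLDN4 the SW48 change exceeded that of Caco2 by 4.88 log2 (SE 0.27, adjusted p = 7.44e-12), and for CLDN1 it lay below that of Caco2, with a difference of -3.94 (SE 0.32, adjusted p = 2.55e-09). For CLDN2 the LIM1215 change was below that of Caco2, with a difference of -5.84 (SE 0.35, adjusted p = 1.77e-11). Each of these differences includes values below background, those of CLDN4 in parental SW48, CLDN1 in SW48, and CLDN2 in resistant LIM1215 and in Caco2, so their sizes are limited by dim signal. In the change to withdrawal, DSG3 differed between SW48 and both other lines, by 3.33 from Caco2 (adjusted p = 3.5e-06) and with a difference of -3.49 for LIM1215 minus SW48 (adjusted p = 2.5e-06). The share of all genes that differed there was 5.31% in SW48 against Caco2 and 13.3% in LIM1215 against SW48, where 2 of the 10 genes differed in each case. Between LIM1215 and Caco2 only CLDN3 differed (13.4% of all genes).

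Other junction genes were read from lists by family. The counts of every list below stand beside the share of all genes called against parental cells. For resistant cells it was 10.8% in LIM1215, 22.7% in SW48 and 27.4% in Caco2. For withdrawal cells it was 21.1%, 4.08% and 5.28%. A list count near its share is not particular to the list. Of 19 other claudins, none was called between resistant and parental cells in LIM1215 or SW48 (limma; 1 of them in each line had an unadjusted p under 0.05, and 1 of 19 lay above background in each of the groups compared), and 3 were higher and 2 lower in Caco2. CLDN19, a claudin of the renal tubule, rose 5.01-fold in resistant Caco2 cells (7.88 to 10.21, a change of 2.32, SE 0.14, adjusted p = 1.19e-11) and was still 2.02-fold above parental after withdrawal. It was the only one of these 5 above background in either group. After withdrawal 1 other claudin was higher than in parental cells in LIM1215, 0 in SW48 (limma; 0 had an unadjusted p under 0.05) and 2 in Caco2, and none was lower.

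Among 20 other tight-junction genes, 0 were higher and 1 lower in resistant LIM1215 (0 and 0 without parental replicate 3), 3 and 4 in SW48, and 1 and 3 in Caco2. After withdrawal the LIM1215 count was 4 higher and 2 lower, or 8 and 2 without parental replicate 3, and it was 0 and 1 in SW48 and 1 and 0 in Caco2. PARD6B, a subunit of the apical polarity complex, was 2.40-fold higher in LIM1215 after withdrawal than in parental cells (1.26, SE 0.19, adjusted p = 6.55e-05; 1.63 without parental replicate 3).

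Of 13 adherens-junction genes, 1 was higher and 2 lower in resistant LIM1215, 3 and 3 in SW48, and 3 and 3 in Caco2. In resistant SW48, NECTIN2, an adhesion molecule that also binds receptors of natural killer cells, rose 2.44-fold (1.29, SE 0.12, adjusted p = 3.24e-08) and VCL, the actin linker vinculin, 2.13-fold. PDZD11, a partner of the adherens-junction protein PLEKHA7, fell 2.09-fold in resistant Caco2. In LIM1215 after withdrawal NECTIN1 was 2.19-fold higher and NECTIN3 2.11-fold lower than in parental cells, with changes of 1.07 and -1.48 log2 without parental replicate 3. The withdrawal counts were 1 higher and 1 lower in LIM1215, 2 and 0 in SW48 and 1 and 1 in Caco2, or 2 and 1 in LIM1215 without parental replicate 3.

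Of 14 other desmosome genes, 0 passed in resistant LIM1215 (limma; 3 had an unadjusted p under 0.05, and 1 was called lower without parental replicate 3), 1 was higher and 5 lower in SW48, and 2 were higher and 2 lower in Caco2. In SW48 the plaque protein PKP3 fell 2.28-fold (-1.19, SE 0.22, adjusted p = 0.00021) and PPL, the linker periplakin, rose at least 4.36-fold (6.39 to 8.85, adjusted p = 5.96e-09). In Caco2 the desmosomal cadherins DSG2 and DSC2 fell 2.11-fold and 2.23-fold, where DSP read 15.28 and 15.17 with no call. PKP2 was 2.07-fold lower in SW48 after withdrawal than in parental cells, the groups in which DSG3 differed. After withdrawal the counts were 2 higher and 0 lower in LIM1215 (2 and 1 without parental replicate 3), 0 and 3 in SW48 and 1 and 1 in Caco2.

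**Figure D3:**
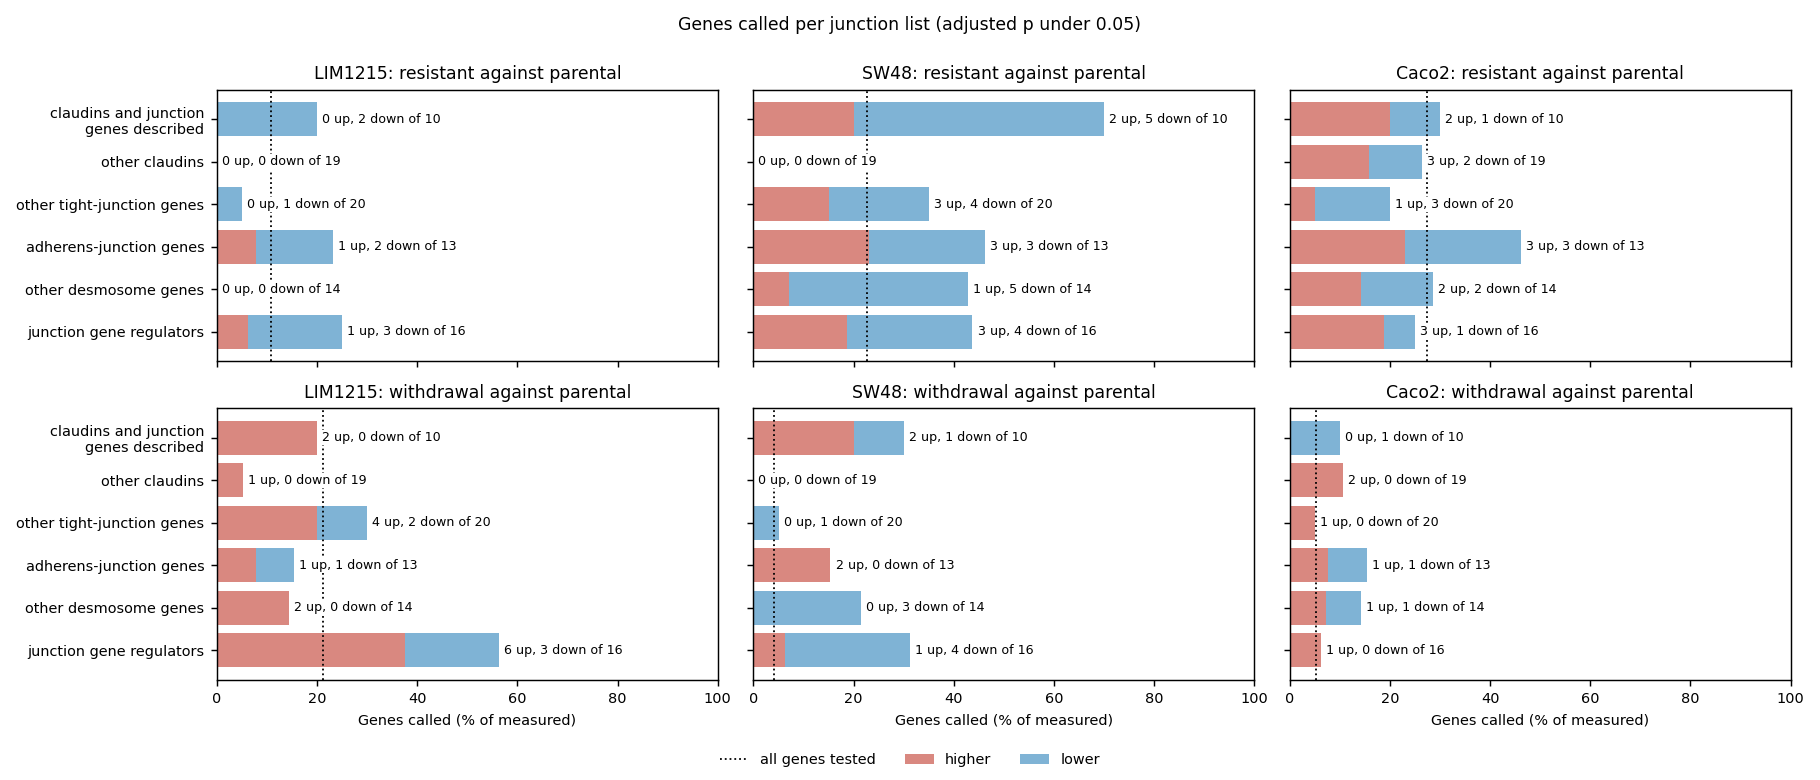
Bars give the percent of measured genes of each junction list that was called higher (red) or lower (blue) than in parental cells, for resistant cells in the upper row and withdrawal cells in the lower row, and the dotted line is the percent of all genes called in the same comparison. The 10 genes described reach 7 of 10 in resistant SW48, where the line stands at 22.7%. Of the 6 above background in either of those groups 3 were called, against 38.6% of all such genes. The other claudins stay at 0 of 19 in resistant LIM1215 and SW48, where 1 of 19 lay above background in each group.

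Regulators of junction genes were read from a list of 16 measured genes. ZEB1, ZEB2 and TWIST1, known repressors of CDH1 that are singled out here after their values were seen, were near background in all 9 groups. In LIM1215 the E-box repressor SNAI1 fell at least 2.82-fold in resistant cells (9.24 to 7.43, SE 0.30, adjusted p = 0.000161; a change of -1.81 log2, or -1.34 without parental replicate 3), where CDH1 read 13.82 and 13.83. After withdrawal SNAI2 reached 7.48 from 5.08 in parental cells, at least 1.09-fold higher (adjusted p = 3.92e-06), the splicing factor ESRP1 was 4.39-fold higher (adjusted p = 5.52e-06), and KLF4 and GRHL3 changed by 1.43 and -1.23. Without parental replicate 3 these changes were 2.65 for SNAI2, 2.66 for ESRP1, 1.83 for KLF4 and -1.18 for GRHL3. In all, 6 of 16 were higher and 3 lower in that comparison, or 8 and 3 without parental replicate 3, beside 1 and 3 in resistant cells, or 4 and 2 without that array. With all arrays, 21.1% of all genes were called after withdrawal and 10.8% in resistant cells.

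In resistant SW48 cells 3 of the 16 regulators were higher and 4 lower, where 22.7% of all genes were called. OVOL1, a repressor of mesenchymal genes, rose 2.10-fold and the intestinal factor CDX2 fell 2.07-fold (12.96 to 11.91, adjusted p = 1.2e-07). After withdrawal 1 was higher and 4 lower than in parental cells, where the epithelial factors EHF, GRHL3 and OVOL1 were 3.56-fold, 2.84-fold and 2.03-fold lower and GRHL1 at least 1.39-fold higher. In resistant Caco2 cells 3 were higher, all as differences of dim values, and 1 lower. The lower one, GRHL2, fell 2.07-fold (adjusted p = 8.53e-06). After withdrawal 1 of 16 was called in Caco2, as a difference of dim values.

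**Figure D4:**
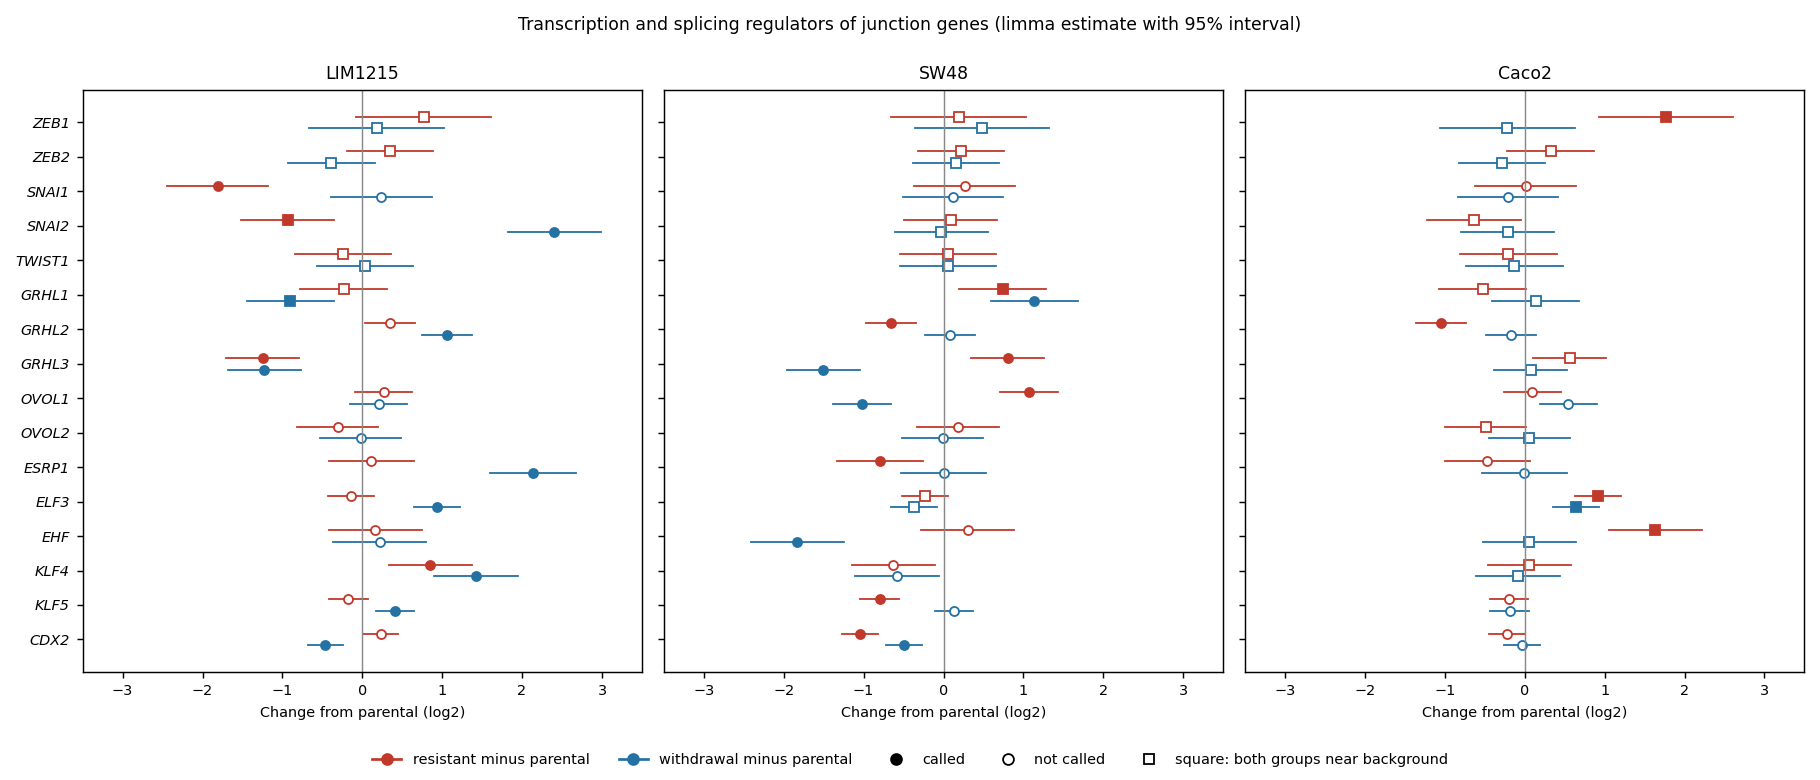
For 16 regulators of junction genes the horizontal axis gives the log2 change from parental cells with its 95% interval, for resistant (red) and withdrawal cells (blue); filled marks were called and squares mark genes near background in both groups. Among genes above background in a group, the furthest from 0 are SNAI1 at -1.81 in resistant LIM1215, SNAI2 at 2.40 and ESRP1 at 2.13 in LIM1215 after withdrawal, and EHF at -1.83 and GRHL3 at -1.51 in SW48 after withdrawal.

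Markers of stratified epithelium, where DSG3 is normally made, were followed beside it. Of 10 measured, the number above background was 4 on every SW48 array, but these were not the same genes in each state. By group means KRT5 was near background in parental cells and KRT14 in resistant cells. In resistant SW48 cells the basal keratin KRT5 rose at least 3.29-fold (5.61 log2, adjusted p = 3.1e-12) and the calcium-binding protein S100A2 7.07-fold, whereas the basal keratin KRT14 fell at least 9.01-fold (-3.59, adjusted p = 4.51e-13) and KRT16 2.55-fold. After withdrawal 0 of 10 were called higher and 1 lower than in parental cells (limma; 2 were higher at an unadjusted p under 0.05), in the same groups in which DSG3 was 3.39 log2 higher. The list gave 0 higher and 3 lower in resistant LIM1215, TRIM29 among them (3.54-fold lower; -1.52 log2 without parental replicate 3), and 2 higher and 1 lower in resistant Caco2. In LIM1215 after withdrawal 2 were higher, or 3 without parental replicate 3, and in Caco2 1 was lower.

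Simple epithelial keratins of the colorectal marker list also moved in SW48. KRT18 rose 4.72-fold and KRT19 fell 2.41-fold in resistant cells (adjusted p = 6.73e-14 and 2.81e-07), and KRT18 was still 2.24-fold above parental after withdrawal. Of the 13 colorectal markers, 2 were higher and 3 lower in resistant SW48, 1 and 2 in LIM1215, and 2 and 1 in Caco2, where VIL1, the microvillus protein villin, and FABP1, a fatty-acid carrier of enterocytes, rose 2.20-fold and 3.49-fold. After withdrawal the counts were 1 and 1 in LIM1215, 2 and 2 in SW48 and 0 and 1 in Caco2. Without parental replicate 3, the LIM1215 counts were 0 and 0 in resistant and 2 and 3 in withdrawal cells.

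For each of the 10 genes the other genes most like it over the 27 arrays were found by Pearson's r after each line's mean was subtracted, among 5812 genes above background in at least 1 group and with a standard deviation of 0.3 or more after that centring. The arrays share their groups, so r describes mainly how the 9 group means run together. The 10 genes themselves were not filtered for background. CLDN1 was above it in 6 of the 9 groups, CLDN2 in 2, CLDN3 in 3, CLDN4 in 7 and DSG3 in 1. The r values of these genes therefore rest in part on dim values, as those of CLDN3 in SW48 and Caco2 and of CLDN1 in SW48. CLDN4 was most like NAPG, a vesicle fusion adaptor (r = 0.974), and KLK5, a kallikrein protease (r = 0.968), which rose by 3.57 and 5.24 log2 in resistant SW48. CLDN2 was most like TGFBI (r = 0.833), an extracellular matrix protein, and DKK1 (r = 0.827), a WNT antagonist, which fell by 5.73 and 4.40 in resistant LIM1215. CLDN3 was most like TBC1D1 (r = 0.925) and RGS10 (r = 0.922), and CLDN1 like LGALS3, the lectin galectin-3 (r = 0.923), and CASP8, the initiator protease of death-receptor signalling (r = 0.90). DSG3 was most like CDH11, a mesenchymal cadherin (r = 0.901), and FOSL2, an AP-1 subunit (r = 0.882).

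CDH11 read 8.98 in SW48 after withdrawal and 6.40 in parental cells, at least 4.78-fold higher, in the group where DSG3 rose. The genes most alike were picked on these same arrays, so such changes follow from the choice and are no separate result. TJP1 was most like PHLDA1 (r = 0.92), which fell 9.18-fold in resistant LIM1215, and the trypsinogen PRSS2 (r = 0.916). OCLN was most like TJP3, another tight-junction scaffold (r = 0.849), and JDP2 (r = 0.848), while for CLDN7, CDH1 and DSP the nearest genes were PRSS12, PTPDC1 and ZNF623 with r of 0.883, 0.829 and 0.877.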

How the data were processed

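RNA of 3 colorectal cancer lines was measured on 27 whole-transcript arrays, 250 ng of RNA each. The deposited values are log2 intensities, 1 per probe set; the base was inferred from their range (1.09 to 18.8), and the method of normalization is not given in the labels or file headers. GEO's platform annotation named 17709 of 21448 transcript probe sets with 1 symbol, 0 with several and 3739 with none; for 20 genes read by more than 1, the probe set of highest mean was kept. limma 3.58.1 in R 4.3.3 fitted a mean per group over all 27 arrays (18 residual and 4.12 prior degrees of freedom), with Benjamini-Hochberg adjustment over 17687 genes in each of 15 comparisons, called under 0.05. A fold against a group near background uses the background limit and is a lower bound. The number of arrays limits the precision. On simulated SW48 data with 17687 genes, 24% of genes changed by 0.5 log2, 72% of those changed by 1 and 98% of those changed by 2 were called. There 50 genes were changed at each size and 17487 were left unchanged. In the measured comparison of resistant with parental SW48 cells 22.7% of genes were called, so these rates need not hold for it. The 10 genes, the lists (other claudins, other tight-junction, adherens-junction and other desmosome genes, regulators, and stratified, colorectal and natural killer cell markers) and the tests were chosen with earlier results of these data known. From each list, genes called against parental cells with a change of 1 log2 or more and a group above background could be named, at most the 4 largest, and for each of the 10 genes the 2 most alike with a standard deviation of 0.3 or more after centring. Alternatives were a fit per line, a replicate block, quantile normalization, other gene filters, a trended robust eBayes and leaving out each array. Promoters and starts are RefSeq's on GRCh38.p14; 9 of the 10 genes had an entry, CDH1 being the other.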

Additional observations from a re-analysis of the deposited data

Results flagged for a closer look

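For these genes the change from parental cells differed between lines, by a limma test of the difference itself (adjusted p over all genes); each value is the change in the first line minus that in the second, in log2, with 3 arrays per group. For resistant cells, LIM1215 minus SW48 gave 2.10 for CLDN1, -3.29 for CLDN2, -4.91 for CLDN4, -0.43 for TJP1 (adjusted p = 0.0407) and 0.84 for DSP. LIM1215 minus Caco2 gave -1.84 for CLDN1, -5.84 for CLDN2, 3.09 for CLDN3 and -0.55 for TJP1. SW48 minus Caco2 gave -3.94 for CLDN1, -2.56 for CLDN2, 3.41 for CLDN3, 4.88 for CLDN4, -0.56 for CLDN7, -0.59 for DSP and -1.26 for DSG3. For withdrawal cells, LIM1215 minus SW48 gave 2.12 for CLDN2 and -3.49 for DSG3. LIM1215 minus Caco2 gave 0.98 for CLDN3 (adjusted p = 0.0327), and SW48 minus Caco2 gave -2.91 for CLDN2 and 3.33 for DSG3. CLDN1 and CLDN3 in SW48, CLDN2 in SW48 and Caco2, CLDN3 in Caco2 and DSG3 in LIM1215 and Caco2 were near background in every state. CLDN2 in resistant LIM1215, CLDN4 in parental and withdrawal SW48, and DSG3 in parental and resistant SW48 were near background too. The share of these groups in the differences comes from dim values, and the DSG3 difference in resistant cells rests on dim values alone, as do the CLDN2 and CLDN3 differences between SW48 and Caco2. The TJP1 difference between LIM1215 and SW48 was called in 7 of 16 other settings and the CLDN3 difference between LIM1215 and Caco2 in 8 of 16.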

How the results depend on the processing

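Of 1416 single-gene values recomputed under other settings, 1334 kept their direction and side of the threshold, 46 lost the call, 14 gained one and 22 changed sign. Fitted on the arrays of one line alone, which leaves fewer residual degrees of freedom, the count of all genes called was 1230 (1913 with all arrays) for resistant LIM1215, 2227 (3724) for LIM1215 after withdrawal and 380 (722) for SW48 after withdrawal, and 0 of the 10 genes were called after withdrawal in LIM1215 or Caco2. Quantile normalization and testing all transcript probe sets also gave 0 in Caco2, where CLDN3 had been called. Same-numbered arrays had deviations that correlated at -0.041 to 0.075, so the numbers were not taken as pairs; with the replicate number as a block, 1 of the 10 genes was called in LIM1215 after withdrawal (OCLN, adjusted p = 0.0336 by limma; TJP1 0.0589). Leaving out 1 array at a time, LIM1215 after withdrawal gave 2260 to 5019 genes and 0 to 4 of the 10, 4 without parental replicate 3 and 0 without parental replicate 1 or 2; SW48 after withdrawal gave 448 to 580 genes, and Caco2 0 to 1 of the 10. The withdrawal difference of LIM1215 from SW48 gave 1547 to 3863 genes and 2 to 4 of the 10, and from Caco2 1604 to 3960 and 0 to 3. The cause was not tested.

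The values that changed sign were called in no setting. Under quantile normalization they were -0.019 for TJP1 between withdrawal and resistant SW48 and -0.061 for CLDN4 in resistant Caco2. With 1 array left out, resistant LIM1215 ranged from -0.12 to 0.12 for CLDN4, -0.088 to 0.083 for CLDN7, -0.086 to 0.067 for CDH1 and -0.21 to 0.21 for OCLN. CLDN1 in SW48 after withdrawal ranged from -0.45 to 0.23, and TJP1 between withdrawal and resistant SW48 from -0.027 to 0.092. Resistant Caco2 ranged from -0.033 to 0.028 for CLDN4, -0.073 to 0.0069 for TJP1 and -0.029 to 0.16 for DSG3. DSG3 in Caco2 after withdrawal ranged from -0.042 to 0.12 against parental and -0.098 to 0.040 against resistant cells, and CLDN7 from -0.015 to 0.14 against resistant cells. Genes near background, where changes carry no fold, are limited by signal.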
